A study of Mus musculus with 12 samples.

Results

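Aminoacyl-tRNA synthetases were followed across 4 groups of sorted mouse CD8 T cells. The members are the 36 genes of the deposited read count table whose symbol names a synthetase, out of 16353 genes in the table. Of these, 20 encode the cytosolic enzymes (symbols such as Rars) and 16 the mitochondrial ones (symbols ending in 2, such as Rars2). All 36 were found and all passed the filter on low counts, so none is missing from the counts given here.

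Messenger RNA had been sequenced in 12 libraries, 3 a group, from KB5 T cells of the spleen of CBA/J mice. All groups carry the KB5 transgenic T cell receptor, which recognises an antigen of C57BL/6 cells, and the cells were sorted on that receptor and CD8 to a purity of 95% by the labels. The naive group had no treatment. Activated cells were taken 12 h after 10000000 C57BL/6 splenocytes had been injected intravenously. Tolerized cells came from mice that also received 0.5 mg of anti-CD154, which blocks CD40 ligand and so withholds costimulation. For the inflamed group 100 µg of the bacterial inflammatory agent LPS (lipopolysaccharide) was added to the same splenocytes and antibody. Antibody and LPS were given intraperitoneally. The labels speak of independent libraries but name no separate mice and no ages, so p-values measure the spread between these libraries, which may be technical.

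A synthetase joins 1 amino acid to its tRNA, using ATP, and the ribosome then draws on these charged tRNAs. Cytosolic and mitochondrial translation mostly use separate enzymes, both encoded in the nucleus. Exceptions are known: mammalian Gars and Kars each give a cytosolic and a mitochondrial form, Eprs charges both glutamate and proline, and the cytosolic phenylalanine enzyme needs the subunits Farsa and Farsb. Mitochondria lack a glutamine enzyme of their own and convert glutamate that Ears2 has attached. Naive T cells are small and make little protein, and stimulation through the T cell receptor is known to raise protein synthesis before division.

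Regulation of these genes by amino acid supply is best known through ATF4, whose sites combine C/EBP and ATF half-sites, and growth signals act on many of them through MYC, which binds the E-box. Promoter windows in RefSeq (GRCm38.p6), each of 300 bases with 250 before and 50 after a start, were found for 27 members. The stretches that follow all end at the base before the start, and they show where matches lie in the cytosolic genes with an upstream match to either motif, and a mitochondrial promoter without one. Capitals mark the E-box CACGTG and the C/EBP-ATF composite TGATGNAAN on either strand (TGATG reads CATCA on the other strand). Each is written 5′ to 3′ on the strand of its gene.
Aars, chr8:111033682-111033841, plus strand: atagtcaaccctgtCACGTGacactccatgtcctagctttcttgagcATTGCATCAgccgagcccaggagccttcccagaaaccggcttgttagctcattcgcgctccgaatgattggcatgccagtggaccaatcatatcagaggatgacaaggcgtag
Gars, chr6:55037941-55038000, plus strand: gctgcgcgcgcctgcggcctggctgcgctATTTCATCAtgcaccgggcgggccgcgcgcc
Tars, chr15:11399659-11399718, minus strand: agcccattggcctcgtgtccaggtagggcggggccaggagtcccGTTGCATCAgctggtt
Iars, chr13:49682030-49682129, plus strand: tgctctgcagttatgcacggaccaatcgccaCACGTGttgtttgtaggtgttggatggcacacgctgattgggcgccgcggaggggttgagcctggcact
Farsb, chr1:78488898-78488957, minus strand: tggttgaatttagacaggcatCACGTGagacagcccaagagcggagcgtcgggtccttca
Yars2, chr16:16302905-16302964, plus strand: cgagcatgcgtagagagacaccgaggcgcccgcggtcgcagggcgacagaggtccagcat

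In the full windows the composite motif was found in 5 of 13 cytosolic genes with a window (Aars, Gars, Iars, Tars and Yars) and in 0 of 14 mitochondrial genes. Over the 12978 genes of the count table with a window the share was 3.08%, and over all 32851 windows it was 3.95%. CACGTG was found in 4 of the 13 cytosolic genes (Aars, Farsb, Iars and Tars) and in 1 of the 14 mitochondrial genes (Ears2), against 10.6% of genes and 7.15% of windows. Aars, Iars and Tars held both motifs, and the matches did not overlap. The windows of Dars, Eprs, Farsa, Kars, Mars, Qars and Sars held neither. The letters TTTC followed after any 2 bases by TTTC, as in the interferon-stimulated response element, were found in Qars alone among the 27, against 3.81% of genes. No window was found for Cars, Hars, Lars, Nars, Rars, Vars, Wars, Hars2 and Pars2. A match is a description of these letters and not a measured binding site. The Atf4 transcript was higher in activated than in naive cells, by 1.11 ± 0.28 (log2 change of CPM + 1 ± SE, adjusted p = 0.0046), and Myc was higher by 3.53 ± 0.25 (adjusted p = 8.18e-07). Atf4 stood at 107, 137 and 215 CPM in naive and 404, 310 and 256 CPM in activated libraries. Whether the motifs bear on any change was not tested.

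Libraries held 29335723 to 84533097 reads assigned to genes, and members were counted deeply, from 180 reads for Ears2 in 1 tolerized library to 169570 for Lars2 in 1 naive library. Levels are given as CPM, read counts scaled to a common library total and for library composition, so they show the share of a transcript and not the amount per cell. All 8 CD8 T cell markers had reads in every library, and their summed level was 4480 to 5550 CPM in naive and 2210 to 3590 CPM in the other groups. Monocyte, B cell and erythroid marker sums were highest in naive cells. All 11 monocyte and macrophage markers had reads in every library and summed to 722 to 1870 CPM in naive, 57.6 to 704 in activated, 45.1 to 136 in tolerized and 13 to 439 CPM in inflamed cells. The 7 B cell markers summed to 327 to 422 CPM in naive and 75.9 to 163 CPM in the other groups, and the 8 erythroid markers to 957 to 2310 CPM against 19.2 to 293 CPM. The 8 neutrophil markers summed to 14.8 to 313 CPM in inflamed cells and to at most 22 CPM elsewhere. Summed markers of dendritic cells were at most 36.7 CPM and those of NK cells at most 2.69 CPM.

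Every cytosolic synthetase transcript was higher in antigen-exposed than in naive cells. In activated cells 20 of 20 passed (limma-trend, Benjamini-Hochberg adjusted p under 0.05 over the 12499 genes tested), where 35.3% of all genes tested were called higher. In tolerized cells 20 of 20 were higher against 37.4%, and in inflamed cells 20 of 20 against 36.9%. The median change of the 20 was 1.77, 1.85 and 1.87 on the log2 scale, beside medians over all genes of -0.04, -0.01 and -0.01. Over 2-fold higher were 18, 18 and 19 members, against 17.0%, 19.0% and 18.7% of genes. For each of the 20, all 9 exposed libraries lay above all 3 naive libraries, which held for 34.6% of all genes tested. These 3 comparisons share the naive libraries.

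**Figure D1:**
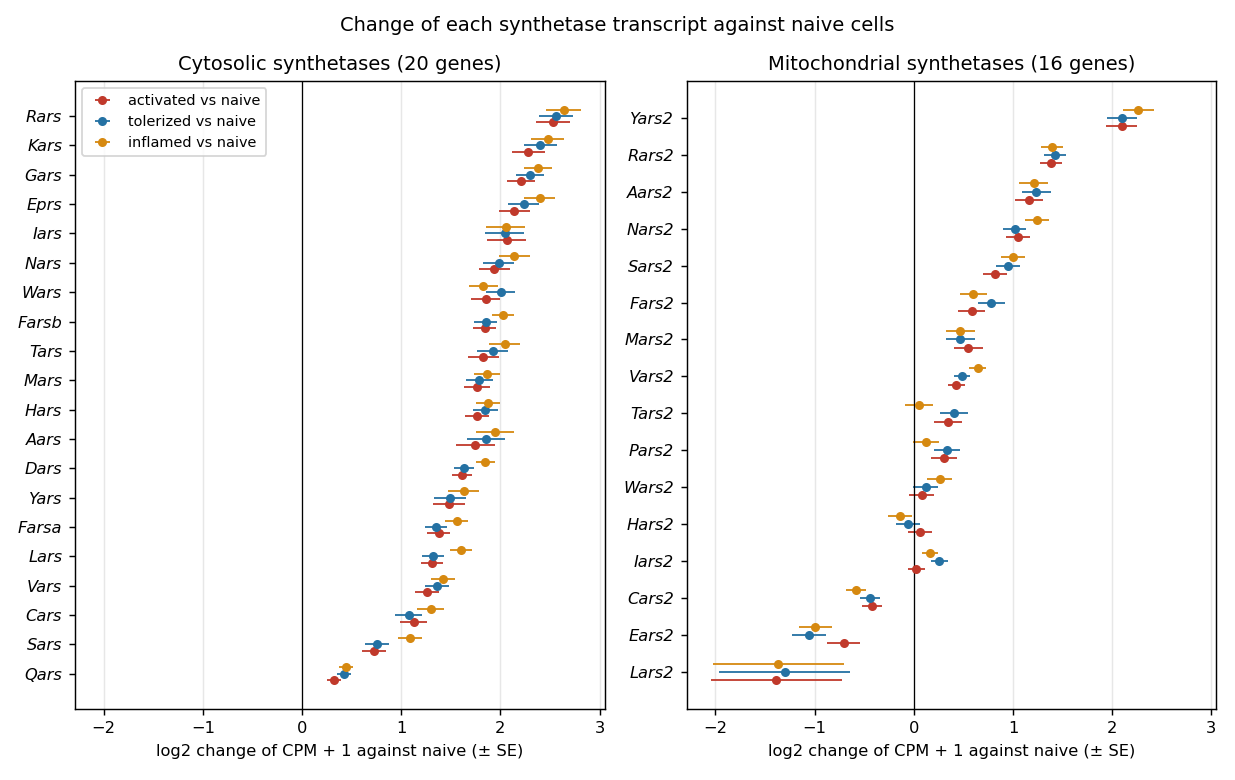
Log2 change of CPM + 1 against naive cells (x axis, bars are SE of the fit) for each of the 20 cytosolic and 16 mitochondrial synthetases (y axis), in activated, tolerized and inflamed cells, 3 libraries a group. All cytosolic points lie right of 0, from Qars at 0.32 to Rars at 2.64, while mitochondrial points run from Lars2 at -1.39 to Yars2 at 2.26.

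Rars, the arginine enzyme, showed the largest cytosolic change. Its level was 51.1, 52.6 and 44.9 CPM in the naive libraries. It was 359, 283 and 242 CPM in activated, 373, 291 and 242 CPM in tolerized and 344, 280 and 317 CPM in inflamed libraries. No exposed library came near the naive range, and the changes were 2.53, 2.56 and 2.64, each with an SE of 0.17 (adjusted p = 6.22e-07, 4.75e-07 and 3.86e-07).

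Rars is 1 of 8 enzymes known to sit in the cytosolic multisynthetase complex, with Dars, Eprs, Iars, Kars, Lars, Mars and Qars. Kars, the lysine enzyme, stood at 82.0, 87.3 and 83.8 CPM in naive libraries and at 518, 409 and 335 CPM in activated ones, a change of 2.28 ± 0.17 (adjusted p = 9.52e-07). Eprs stood at 131, 134 and 119 CPM in naive and 669, 536 and 506 CPM in activated libraries, a change of 2.14 ± 0.16 (adjusted p = 9.52e-07). In tolerized libraries Kars stood at 543, 445 and 375 CPM and in inflamed ones at 536, 427 and 465 CPM. Eprs stood at 774, 578 and 495 CPM in tolerized and 712, 624 and 701 CPM in inflamed libraries. Both were highest in library 1 of each exposed group, and the exposed groups overlapped one another. Iars, the isoleucine enzyme, changed by 2.06 ± 0.20 in activated cells, Mars, the methionine enzyme, by 1.77 ± 0.13, Dars, the aspartate enzyme, by 1.61 ± 0.10 and Lars, the leucine enzyme, by 1.31 ± 0.11.

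Qars, the glutamine enzyme of the same complex, changed least of the 20. It stood at 137, 140 and 131 CPM in naive libraries, at 170, 176 and 166 CPM in activated, 170, 181 and 198 CPM in tolerized and 180, 189 and 187 CPM in inflamed libraries. The groups did not overlap with naive, and the changes were 0.32, 0.42 and 0.44, each with an SE of 0.07 (adjusted p = 0.00191, 0.000306 and 0.000216). The Qars call depends on the scaling: with library size alone its changes were 0.05, 0.11 and 0.12 and passed in none of the 3 comparisons, and with upper-quartile scaling the activated change of 0.12 did not pass (adjusted p = 0.104). The 2 scalings lower the median of all genes against naive by 0.22 to 0.27 and by 0.16 to 0.18 on the log2 scale, and the other 19 cytosolic genes passed under both.

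The median change of the 8 complex enzymes was 1.91, 1.92 and 1.96 in activated, tolerized and inflamed cells, beside 1.76, 1.85 and 1.85 for the 12 enzymes outside it, and this difference was not tested. Transcripts of the 3 scaffold proteins that hold the complex together were also called higher in all 3 groups. Of all genes tested, 35.3%, 37.4% and 36.9% were called higher in activated, tolerized and inflamed cells. In activated cells Aimp1 changed by 1.49 ± 0.13 (adjusted p = 2.52e-06), Aimp2 by 2.30 ± 0.19 (adjusted p = 2.15e-06) and Eef1e1 by 3.31 ± 0.16 (adjusted p = 1.14e-07). Eef1e1 rose from a mean of 16.9 to 178 CPM.

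Among the 12 outside the complex, Gars, the glycine enzyme, changed most. Its level was 89.8, 93.5 and 80.5 CPM in naive and 490, 391 and 358 CPM in activated libraries, a change of 2.21 ± 0.14 (adjusted p = 4.3e-07). In tolerized libraries Gars stood at 511, 419 and 391 CPM and in inflamed ones at 463, 406 and 518 CPM, in the same range as in activated cells. Nars, the asparagine enzyme, followed at 1.94 ± 0.16, Wars, the tryptophan enzyme, at 1.85 ± 0.15 and Tars, the threonine enzyme, at 1.83 ± 0.16. The subunits of the phenylalanine enzyme rose together, Farsb by 1.84 ± 0.11 and Farsa by 1.38 ± 0.12. Hars (histidine) changed by 1.76 ± 0.12, Aars (alanine) by 1.75 ± 0.19, Yars (tyrosine) by 1.48 ± 0.16, Vars (valine) by 1.26 ± 0.12 and Cars (cysteine) by 1.12 ± 0.14. All of these passed in all 3 comparisons.

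Sars, the serine enzyme, was the other cytosolic gene that stayed under 2-fold in activated and tolerized cells. It stood at 159, 148 and 141 CPM in naive, 280, 245 and 219 CPM in activated, 290, 249 and 224 CPM in tolerized and 342, 282 and 334 CPM in inflamed libraries. Its changes were 0.72, 0.76 and 1.09, each with an SE of 0.12 (adjusted p = 0.000379, 0.000235 and 1.71e-05). Of all 20, only Sars and Qars were under 2-fold in activated cells, and only Qars in inflamed cells.

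**Figure D2:**
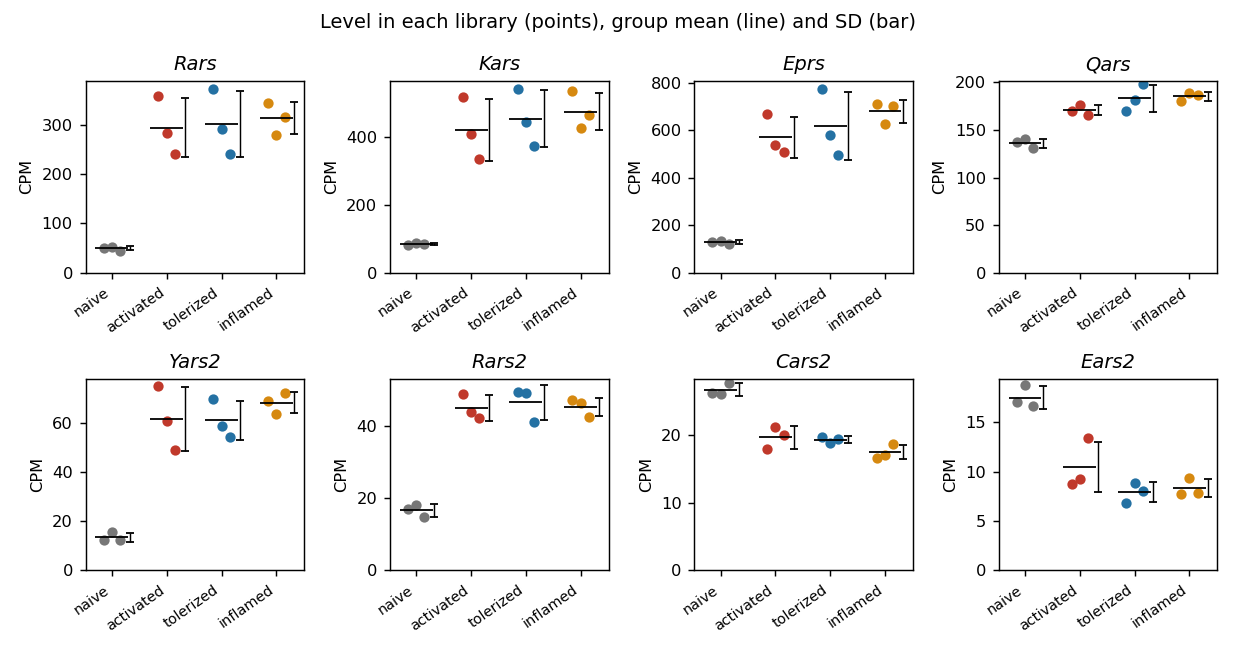
Level in CPM (y axis, from 0) of 4 cytosolic and 4 mitochondrial synthetases in the 3 libraries of each group (points), with the group mean (line) and SD (bar). Rars, Kars, Eprs, Yars2 and Rars2 stand over 2-fold above the naive libraries in every exposed library, Qars stands slightly above, and Cars2 and Ears2 stand below.

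The mitochondrial enzymes were divided. In activated cells 9 of 16 were called higher (35.3% of all genes) and 2 lower (35.3%), in tolerized cells 11 higher (37.4%) and 2 lower (35.9%), and in inflamed cells 8 higher (36.9%) and 2 lower (35.5%). The median changes were 0.39, 0.44 and 0.37, and 4 of the 16 were over 2-fold higher in each comparison, against 17.0%, 19.0% and 18.7% of genes. Called higher in all 3 comparisons were Aars2, Fars2, Mars2, Nars2, Rars2, Sars2, Vars2 and Yars2, and called lower in all 3 were Cars2 and Ears2. Not called in any were Hars2, Lars2 and Wars2. All 9 exposed libraries lay above all naive ones for 8 of the 16 (34.6% of genes) and below them for 3, Cars2, Ears2 and Lars2 (30.5% of genes). With library size alone the higher and lower calls were 6 and 3 in activated, 7 and 3 in tolerized and 7 and 4 in inflamed cells, and with upper-quartile scaling 8 and 3, 7 and 3, and 7 and 4. The mitochondrial medians were then 0.115, 0.135 and 0.049 with library size alone and 0.187, 0.218 and 0.168 with upper-quartile scaling.

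Yars2, the mitochondrial tyrosine enzyme, changed most of the 16. It stood at 12.5, 15.5 and 12.4 CPM in naive libraries, 74.8, 60.7 and 49.1 CPM in activated, 69.9, 58.8 and 54.4 CPM in tolerized and 68.9, 63.7 and 72.2 CPM in inflamed libraries. The lowest exposed library stood over 3 times the highest naive one, and the changes were 2.10, 2.10 and 2.26, each with an SE of 0.16 (adjusted p = 1.05e-06, 8.58e-07 and 5.23e-07). Its printed promoter stretch held none of the 3 motifs, and neither did its full window.

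Rars2 (arginine) followed, at 17.1, 18.2 and 14.7 CPM in naive and 48.9, 43.7 and 42.1 CPM in activated libraries, a change of 1.38 ± 0.11 (adjusted p = 1.83e-06). Rars2 stood at 49.3, 49.1 and 41 CPM in tolerized and 47.2, 46.3 and 42.5 CPM in inflamed libraries, level with activated cells. Aars2 (alanine) stood at 13.7, 13.1 and 12.1 CPM in naive, 34.3, 31.7 and 25.2 in activated, 37.6, 30 and 28.6 in tolerized and 31.5, 28.1 and 34.5 CPM in inflamed libraries. Nars2 (asparagine) stood at 10.5, 12 and 10.1 CPM in naive, 25.4, 23.3 and 21.8 in activated, 24.8, 23.4 and 20.6 in tolerized and 24.6, 28.5 and 28 CPM in inflamed libraries. Neither overlapped with naive, and the activated changes were 1.16 ± 0.14 for Aars2 and 1.05 ± 0.12 for Nars2. Smaller changes were those of Sars2 (serine) at 0.82 ± 0.12, Fars2 (phenylalanine) at 0.58 ± 0.14, Mars2 (methionine) at 0.55 ± 0.15 and Vars2 (valine) at 0.43 ± 0.08. Mars2 lost its call in tolerized and inflamed cells without naive library 3 (adjusted p = 0.0564 and 0.0577, changes of 0.37 each). The same calls were lost with upper-quartile scaling (adjusted p = 0.134 and 0.113) and with library size alone (adjusted p = 0.274 and 0.332). Library size alone also ended the activated calls of Mars2 (adjusted p = 0.0822) and Vars2 (adjusted p = 0.0679).

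Ears2 and Cars2 went the other way. Ears2, which charges glutamate and supplies the route to mitochondrial glutamine tRNA, stood at 17.0, 18.8 and 16.6 CPM in naive, 8.79, 9.30 and 13.4 CPM in activated, 6.84, 8.88 and 8.06 CPM in tolerized and 7.77, 9.37 and 7.80 CPM in inflamed libraries. All 9 exposed libraries lay below the naive ones, and the changes were -0.71, -1.05 and -0.99, each with an SE of 0.17 (adjusted p = 0.00341, 0.000232 and 0.00035). Cars2, the cysteine enzyme, stood at 26.3, 26.1 and 27.8 CPM in naive and 17.9, 21.2 and 20 CPM in activated libraries, and at 19.8, 18.8 and 19.5 CPM in tolerized and 16.7, 17.1 and 18.7 CPM in inflamed ones. Its changes were -0.42, -0.44 and -0.58, each with an SE of 0.10 (adjusted p = 0.00315, 0.00207 and 0.000354). Without the 4 libraries numbered 1 the activated change of Cars2, -0.34, did not pass (adjusted p = 0.0509).

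Overlapping genes limit some of these values, since it is not given whether counting used strand. In GENCODE vM21, Cars2 shares 422 bases (22.2% of its transcript) with Naxd on the other strand, listed in the count table as Carkd, which changed by -0.32 ± 0.17 in activated cells (adjusted p = 0.105). Iars2 shares 2034 bases (37.2%) with Rab3gap2 on the other strand, which changed by 0.02 ± 0.08 (adjusted p = 0.855). Aars shares 1326 bases (23.1%) with Exosc6 on the same strand, and Exosc6 changed by 2.05 ± 0.25 (adjusted p = 3.88e-05). Ears2 shares 89 bases (4.35%) with Ubfd1, which changed by 1.11 ± 0.15 (adjusted p = 6.84e-05), the opposite direction. Hars and Hars2 share 195 bases on opposite strands. These shares are of GENCODE transcripts, which can be longer than the deposited exon length. Iars2 has 5471 against 3540 bases and Aars 5750 against 4891, so less of the counted exons may be shared. The part of these overlaps in the values was not tested.

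A middle group of mitochondrial genes had small changes that in most comparisons did not pass. Hars2 (histidine) stood at 56.1, 57.2 and 54.4 CPM in naive and 49.3, 63.7 and 63.6 CPM in activated libraries, with 48.4, 57.6 and 55.3 CPM in tolerized and 45.1, 50.1 and 57 CPM in inflamed libraries. The groups overlapped, and its changes were 0.06, -0.06 and -0.14 (SE 0.12 each). With upper-quartile scaling Hars2 was called lower in tolerized (-0.281, adjusted p = 0.0368) and inflamed cells (-0.345, adjusted p = 0.0145), as it was with library size alone (-0.365 and -0.467, adjusted p = 0.0414 and 0.0137). Wars2 (tryptophan) changed by 0.08, 0.12 and 0.26 (SE 0.13 each), none past the test. Without activated library 1 the inflamed change of Wars2, 0.27, passed (adjusted p = 0.0271). Iars2 (isoleucine) passed in tolerized cells alone, at 0.26 ± 0.08 (adjusted p = 0.0173), with 80.5, 90.5 and 89.3 CPM beside 76.5, 73.7 and 67.0 CPM in naive libraries. That Iars2 call was lost without naive library 3 (adjusted p = 0.0665) or tolerized library 2 (adjusted p = 0.0643), and the change was -0.05 with library size alone.

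Tars2 (threonine) passed in activated cells by a narrow margin, at 0.34 ± 0.14 (adjusted p = 0.0469), with overlapping libraries: 83.7, 74.7 and 83.7 CPM in naive and 117, 112 and 81.7 CPM in activated. The Tars2 call in activated cells was lost without any 1 of 7 libraries (each naive library, activated libraries 1 and 2, tolerized libraries 2 and 3; adjusted p = 0.0529 to 0.149). Median-of-ratios, upper-quartile and library-size scaling also ended that call (adjusted p = 0.107, 0.419 and 0.634). So did fits without a filter (adjusted p = 0.0597) and of the 2 groups alone (adjusted p = 0.0617). In tolerized cells Tars2 changed by 0.41 ± 0.14 (adjusted p = 0.0219), a call lost without naive library 2 (adjusted p = 0.076) or tolerized library 1 (adjusted p = 0.0603). The same 3 scalings ended the tolerized call (adjusted p = 0.0553, 0.298 and 0.491). In inflamed cells the change was 0.05 ± 0.14 (adjusted p = 0.753). Pars2 (proline) changed by 0.30, 0.34 and 0.13 (SE 0.13 each; adjusted p = 0.0591, 0.0388 and 0.406). The tolerized call of Pars2 was lost without naive library 2 or 3 or tolerized library 2 (adjusted p = 0.0904, 0.118 and 0.152). It was also lost with median-of-ratios, upper-quartile and library-size scaling (adjusted p = 0.0671, 0.389 and 0.774). An activated call was gained when any 1 of 5 libraries was left out (naive 1, activated 1, tolerized 1, inflamed 1 or inflamed 2, adjusted p = 0.0428 to 0.0485). Limma-voom (adjusted p = 0.038) and a filter at 5 CPM (adjusted p = 0.0428) also gave an activated call.

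Lars2, the mitochondrial leucine enzyme, stood apart in level and in spread. Its level was 1420, 1770 and 1460 CPM in naive libraries. It was 309, 738 and 897 CPM in activated, 242, 903 and 1110 CPM in tolerized and 235, 965 and 942 CPM in inflamed libraries. All 9 exposed libraries lay below the naive ones, and library 1 was the lowest in every group. The changes of -1.39, -1.30 and -1.36 had an SE of 0.66 each and did not pass (adjusted p = 0.0819, 0.097 and 0.0843).

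Without the 4 libraries numbered 1, an alternative chosen after the values were seen, the Lars2 changes shrank to -0.945, -0.65 and -0.72 and passed (adjusted p = 0.00178, 0.00817 and 0.00486). Lars2 also passed in activated and inflamed cells with upper-quartile scaling (adjusted p = 0.0447 and 0.0459) and in fits of the 2 groups alone (adjusted p = 0.0186 and 0.047), and in inflamed cells with library size alone (adjusted p = 0.0464). Leaving out tolerized library 1 also brought the activated and inflamed comparisons past the threshold (adjusted p = 0.0442 and 0.0439), as did leaving out inflamed library 1 for the activated comparison (adjusted p = 0.0479). Bases 3278 to 3349 of the 3894-base Lars2 transcript match a stretch of the antisense gene Gm15564 over 72 bases at 98.6% identity (GENCODE vM21). No other member had such a match of at least 50 bases and 95% identity to a gene that does not overlap it. Whether reads of that stretch enter the Lars2 count was not tested.

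Lars2 held 76.4% to 80.3% of the summed CPM of the mitochondrial enzymes in naive and 27.5% to 65.4% in exposed libraries. Summed over all 20 genes, the cytosolic enzymes stood at 1820 ± 105 CPM in naive cells (SD, n = 3), 5870 ± 871 in activated, 6130 ± 1000 in tolerized and 6590 ± 585 CPM in inflamed cells. The 15 mitochondrial enzymes without Lars2 stood at 428 ± 15.4, 596 ± 33.7, 614 ± 24.5 and 595 ± 33.1 CPM. The cytosolic sum was thus 3.23, 3.37 and 3.63 times the naive mean, and the mitochondrial sum without Lars2 was 1.39, 1.44 and 1.39 times it. With Lars2 the mitochondrial sum was 0.63, 0.69 and 0.66 times the naive mean.

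**Figure D3:**
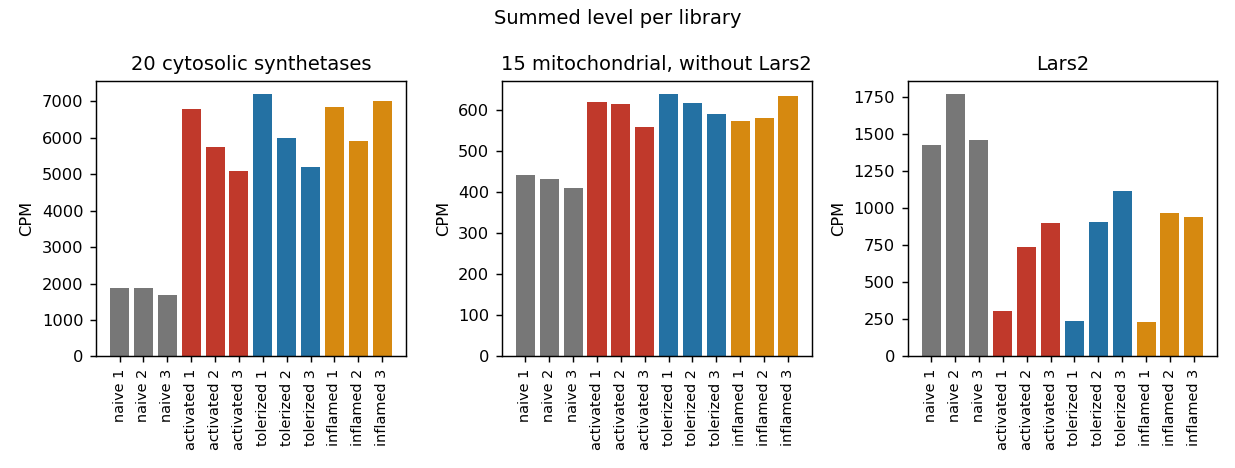
Summed CPM (y axes, from 0) in each of the 12 libraries for the 20 cytosolic enzymes, the 15 mitochondrial enzymes without Lars2, and Lars2 alone. The cytosolic sum is 1695 to 1880 CPM in naive and 5075 to 7196 CPM in the other libraries, while Lars2 falls to 234.7 to 308.8 CPM in the activated, tolerized and inflamed libraries numbered 1.

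Beside these sums, the marker sums of other cell types also moved with the groups. The part of the monocyte and macrophage, B cell and erythroid transcripts, whose sums were lower in every exposed than in every naive library, was not tested. Fewer cells of a type and less RNA per cell cannot be told apart in such bulk libraries.

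The cytosolic and mitochondrial enzymes for the same amino acid were compared per length, as the ratio of CPM per kilobase of exon within each library. In 13 of 15 pairs every exposed library had a higher ratio than every naive library. The ratio of Eprs to Ears2 showed the widest shift. It was 2.92, 2.71 and 2.73 in naive, 29.0, 21.9 and 14.4 in activated, 43.1, 24.8 and 23.4 in tolerized and 34.9, 25.4 and 34.2 in inflamed libraries. Eprs to Pars2 went from a mean of 6.92 to 24.7, 26.1 and 33.7. Lars to Lars2 went from 0.0597 to 0.45, 0.50 and 0.59, so the mitochondrial leucine transcript stayed above the cytosolic one in all libraries but tolerized 1 (ratio 1.07) and inflamed 1 (1.16).

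Tyrosine and serine were the 2 exceptions. The ratio of Yars to Yars2 was 2.31, 1.79 and 1.99 in naive libraries and 1.10 to 1.39 in the 9 exposed ones, so it went down without overlap. The ratio of Sars to Sars2 overlapped, at 4.05, 4.68 and 4.06 in naive and 3.33 to 4.71 in exposed libraries. Cysteine and tryptophan followed the larger pattern. Cars to Cars2 had a mean ratio of 1.28 in naive and of 3.84, 3.79 and 4.88 in the exposed groups, and Wars to Wars2 went from 3.91 to 14, 14.6 and 11.7.

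**Figure D4:**
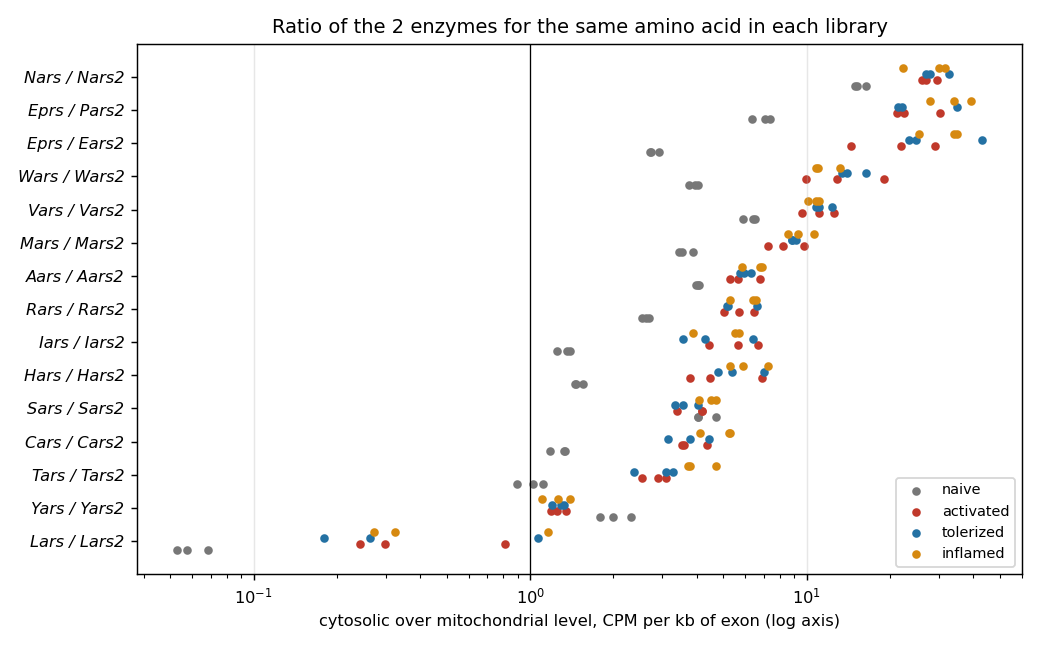
Ratio of cytosolic to mitochondrial level (x axis, log scale, CPM per kilobase of exon) in each library for 15 enzyme pairs (y axis), with points coloured by group. Exposed libraries lie right of the naive ones in 13 pairs, left of them for Yars and Yars2, and among them for Sars and Sars2.

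The order of the levels per kilobase changed as well. These levels, like the ratios above, rest on the deposited exon lengths. For some members these differ from the GENCODE vM21 transcript matched by accession, as for Sars with 3704 against 1866 bases. The order with other lengths was not tested. In naive cells Lars2 led at 399 ± 48.7 CPM per kilobase (SD, n = 3), well above Qars at 54.4 ± 1.78, which was followed by Vars at 51.7 ± 1.37. In activated cells Kars led at 194 ± 42.5, followed by Nars at 173 ± 25.1, Gars at 173 ± 28.6 and Lars2 at 167 ± 78.4 CPM per kilobase, and these 4 overlapped. Qars went from rank 2 of 36 to rank 16 in each exposed group, and Rars from rank 18 to rank 5. The lowest level within naive cells was that of Nars2, at 2.89 ± 0.27, and within tolerized cells that of Ears2, at 4.29 ± 0.56 CPM per kilobase. Pars2 was lowest within activated and inflamed cells, at 4.80 ± 0.35 and 4.21 ± 0.43 CPM per kilobase.

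Among the 3 exposed groups no member differed by the test. Tolerized against activated cells gave 0 of 36 (0% of all genes called). Inflamed against tolerized cells gave 0 of 36 (2.78% of genes), and inflamed against activated cells 0 of 36 (1.92%), all by limma-trend with Benjamini-Hochberg adjustment. At an unadjusted p under 0.05 there were 1, 3 and 4 members, beside 4.25%, 14.7% and 10.0% of genes. The 95% interval lay within 2-fold for 35 of 36 members in each comparison. The exception was Lars2, at 0.08 (interval -1.39 to 1.55) in tolerized against activated cells. The tolerized libraries were unlike one another in Mki67, a gene outside the members, with 78, 2172 and 10345 reads. Mki67 had 142, 171 and 143 reads in activated and 147, 294 and 64 in inflamed libraries. The part of this spread in the comparisons was not tested.

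The members with an unadjusted p under 0.05 changed little. Iars2 was the one in tolerized against activated cells, at 0.23 ± 0.08. In inflamed against tolerized cells they were Sars at 0.33 ± 0.12 (adjusted p = 0.218), Lars at 0.28 ± 0.11 (adjusted p = 0.248) and Tars2 at -0.35 ± 0.14 (adjusted p = 0.257). In inflamed against activated cells they were Sars at 0.36 ± 0.12, Lars at 0.29 ± 0.11, Dars at 0.24 ± 0.10 and Vars2 at 0.21 ± 0.08, with adjusted p from 0.254 to 0.443. These last 2 comparisons share the inflamed libraries. Wars, an interferon-inducible gene in many cells, stood at 55.7, 55.1 and 46.9 CPM in naive, 225, 194 and 162 in activated, 236, 210 and 196 in tolerized and 176, 167 and 228 CPM in inflamed libraries. The exposed groups overlapped, and Wars differed by -0.17 ± 0.15 between inflamed and tolerized cells.

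Of the 20 cytosolic estimates, 19 were above 0 in inflamed against tolerized cells, beside 6006 of the 12499 genes tested. Their median was 0.11 beside -0.01. In tolerized against activated cells 17 of the 20 were above 0, beside 6563 genes, and in inflamed against activated cells 18, beside 6027. The 20 estimates of a comparison rest on the same libraries and are not independent. Cytosolic sums overlapped, at 7196, 5983 and 5203 CPM in tolerized and 6837, 5921 and 7010 CPM in inflamed libraries. The neutrophil marker sum was 313, 129 and 14.8 CPM in the inflamed libraries, and its part was not tested.

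**Figure D5:**
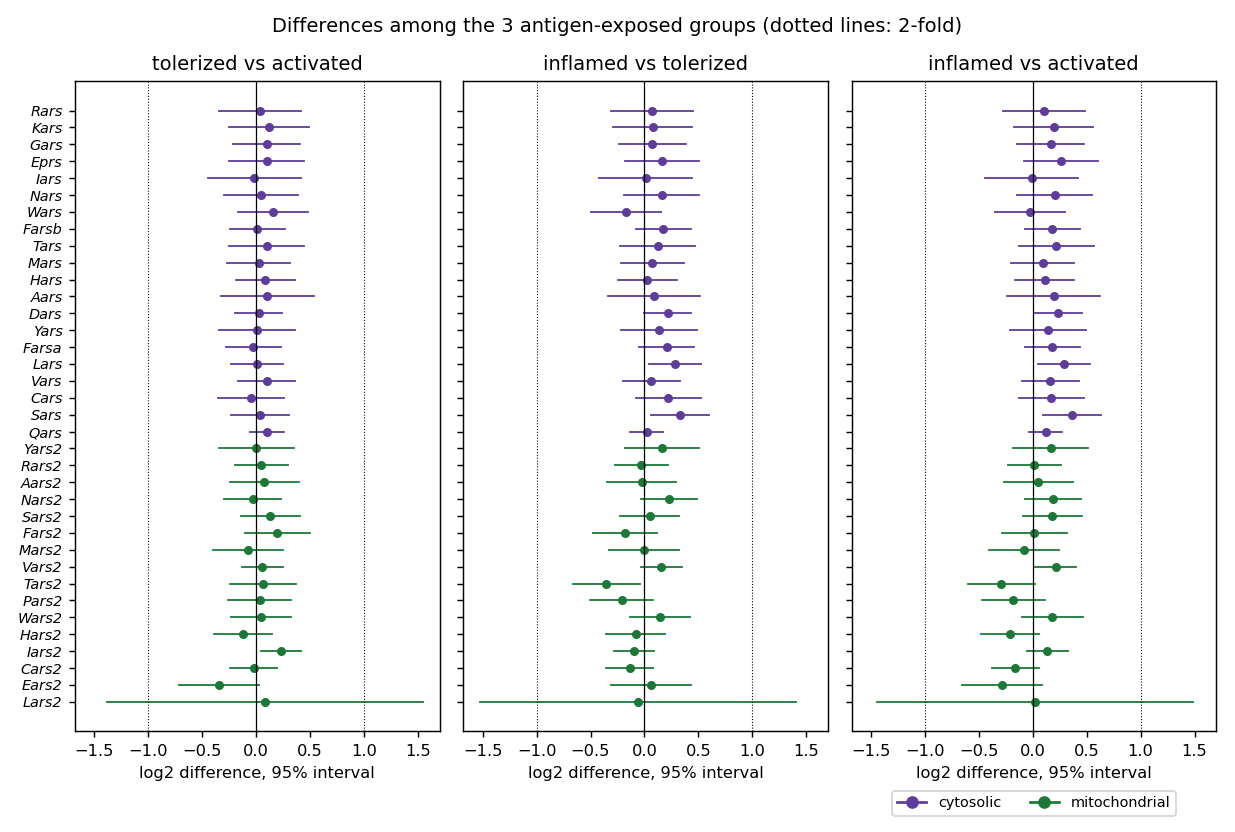
Log2 difference of CPM + 1 with its 95% interval (x axis) for each of the 36 synthetases (y axis) in the 3 comparisons among antigen-exposed groups, with dotted lines at 2-fold. Intervals of 35 members stay inside the dotted lines in each panel, and that of Lars2 crosses both.

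Genes that work beside the synthetases were taken from lists. Tarsl2, a threonine synthetase outside the members, changed by 0.13 ± 0.12 in activated cells (adjusted p = 0.358). All 4 genes that convert glutamate to glutamine on mitochondrial tRNA or formylate its initiator were higher in activated cells (35.3% of all genes), with Gatc at 1.39 ± 0.15, Qrsl1 at 0.65 ± 0.10 and Mtfmt at 0.45 ± 0.10. They rose while Ears2, which feeds the amidotransferase, was lower. Among 4 factors that clear mischarged tRNA, 3 were higher (35.3% of all genes), with Aarsd1 at 1.11 ± 0.13 and Dtd1 at 1.10 ± 0.13.

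Genes that make and move tRNA mostly rose. Of 22 genes of tRNA end processing, splicing and export, 19 were higher and 2 lower in activated cells, with a median change of 1.42, and 19 were higher in both other groups, with 2 lower in tolerized and 3 in inflamed cells. Pop1, a protein subunit of RNase P, rose by 3.70 ± 0.19, the ligase-complex helicase Ddx1 by 2.49 ± 0.12 and the tRNA exporter Xpot by 2.13 ± 0.13, while Rpp21, another subunit of RNase P, fell by 0.43 ± 0.10 and the splicing endonuclease subunit Tsen34 by 0.52 ± 0.17 on the log2 scale. Of 21 genes of RNA polymerase III and its factors, which transcribe tRNA, 17, 18 and 18 were higher and 3 lower in activated, tolerized and inflamed cells. In activated cells Gtf3c5 rose by 1.20 ± 0.10, Polr3d by 2.25 ± 0.21 and Polr3g by 1.82 ± 0.23. The 3 lower genes were Polr3gl, the alternative form of Polr3g, at -2.34 ± 0.43, the initiation factor Brf1 at -0.92 ± 0.16, and Maf1, a repressor of the polymerase, at -1.60 ± 0.22. Over all genes tested, 35.3%, 37.4% and 36.9% were called higher in activated, tolerized and inflamed cells, and 35.3%, 35.9% and 35.5% lower. The median change over all genes was -0.04 in activated cells.

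The genes that sense uncharged tRNA, and the ATF4 targets downstream, were mixed. Of 14 on the list, 8 were higher and 1 lower in activated cells, with a median of 0.68, 8 higher and 2 lower in tolerized and 11 higher and 1 lower in inflamed cells. Over all genes 35.3%, 37.4% and 36.9% were called higher and 35.3%, 35.9% and 35.5% lower. The kinase Eif2ak4, known as GCN2, changed by 0.25 ± 0.11 (adjusted p = 0.0552) and its partner Gcn1l1 by 0.65 ± 0.12 (adjusted p = 0.000736). Asns, asparagine synthetase, rose by 3.05 ± 0.24 and the serine synthesis enzymes Psat1 and Phgdh by 2.79 ± 0.10 and 1.66 ± 0.11. Ddit3, a stress factor downstream of ATF4, fell by 0.73 ± 0.15, and Trib3 changed by -0.84 ± 0.37 (adjusted p = 0.0607). In inflamed against tolerized cells Psat1 was the 1 gene of the 14 that passed, at 0.57 ± 0.10 (adjusted p = 0.0118), while the median of the list was 0.41 and that of the 20 cytosolic synthetases 0.11.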

How the data were processed

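The authors deposited 1 raw read count per gene and library, with comma separators and no normalization, and an exon length per gene, per the file headers. Because of the commas the unit was recorded as other, and limma was used in place of the negative binomial count test planned for counts. TopHat2, bedtools and DESeq and the builds mm10 and GRCm38 are named, without versions or roles, in the submitters' processing notes. The labels' extraction text mentions embryonic fibroblasts, which does not match sorted T cells. Of values from 1 to 20, 56.9%, 55.6% and 57.6% were even in activated, tolerized and inflamed library 1. In the other libraries, naive library 1 (64%) included, 61.4% to 64.4% were even. Of values over 1000, 49.3% to 50.8% were even. Because of the excess of even numbers among values from 1 to 20, totals need not be numbers of fragments. What sets the exposed libraries numbered 1 apart here, and its part in other values such as those of Lars2, was not tested.

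CPM used trimmed-mean-of-M scaling factors, which ran from 0.897 to 1.22. Genes with at least 0.258 CPM in 3 libraries and 15 reads in all were kept (12499). limma-trend (limma 3.58.1, R 4.3.3) was fitted to log2(CPM + 1) with 4 group means over all 12 libraries, and p-values were adjusted over all genes tested. A pseudocount of 1 understates changes of low genes. The script was tested on simulated data. Members and lists were chosen with earlier results of these data known. Named were all members, with all 12 values for the 4 largest and 2 smallest activated changes of each class and for Wars and Hars2, and of each related list the 2 genes with the smallest adjusted p and any that go against the majority, apart from some that are not reported here. Other genes of these lists, overlapping genes and Atf4 were chosen after their values were seen. Related-list genes absent under their listed symbol were matched by gene identifier (3 genes). Overlaps came from GENCODE vM21 and blastn 2.17.0.

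The labels do not say what a replicate number marks. Deviations from the group means correlated over 0.1 in all 3 same-number pairs for tolerized against activated (0.19 to 0.60) and inflamed against activated cells (0.15 to 0.64), and not in the other 4 comparisons. Alternatives were other scalings, limma-voom, filters, pseudocounts of 0.1 and 5, 2-group fits, a replicate block, 2-fold, and each library left out. Protein sequences were not used here.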

Additional observations from a re-analysis of the deposited data

How the results depend on the processing

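Of 94 member calls against naive cells, 82 held in every alternative fit and 88 whenever 1 library was left out. The 2-fold requirement is not part of these numbers. Cytosolic members called higher numbered 20 whichever library was left out, and mitochondrial members called higher 8 to 10, 8 to 11 and 7 to 9 in activated, tolerized and inflamed cells. Requiring 2-fold left 18, 18 and 19 cytosolic members higher in activated, tolerized and inflamed cells. It left 4 mitochondrial members higher in each comparison and 0, 1 and 0 lower. With upper-quartile and with library-size scaling 7 were higher in tolerized and 4 lower in inflamed cells. Without the 4 libraries numbered 1, 20 cytosolic members were higher in each comparison and 9, 10 and 9 mitochondrial ones. The replicate block brought Lars2 past the threshold (adjusted p = 0.00762, 0.00972 and 0.00783), ended the activated Tars2 call (adjusted p = 0.0566) and called no member among exposed groups, nor did any other alternative. These numbers do not pair libraries by the labels, and by correlation only in tolerized and inflamed against activated cells, where the paired fit of 2 groups also called 0 members.

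Direction turned, on the log2 scale, for 5 members near 0. With upper-quartile and library-size scaling respectively, these were in activated cells Hars2 (-0.135 and -0.208), Iars2 (-0.173 and -0.246) and Wars2 (-0.114 and -0.185), in tolerized cells Wars2 (-0.096 and -0.178), and in inflamed cells Iars2 (-0.041 and -0.163), Pars2 (-0.065 and -0.18) and Tars2 (-0.153 and -0.276). Library size alone also turned Iars2 in tolerized (-0.049) and Wars2 in inflamed cells (-0.054). Median-of-ratios scaling turned Iars2 in activated cells (-0.018). With 1 library left out the change crossed 0 for Iars2 (-0.027 to 0.067) and Wars2 (-0.015 to 0.239) in activated cells, Hars2 in tolerized cells (-0.11 to 0.025) and Tars2 in inflamed cells (-0.03 to 0.127), and leaving out the 4 libraries numbered 1 turned Hars2 in tolerized cells (0.046). The cause was not tested. Each member had at least 180 reads in every library, and 3 libraries a group limit what could be called.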

Other observations

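The factors that use charged tRNA on the ribosome were unevenly changed. Of 9 mitochondrial translation factors, 7 were higher and 1 lower in activated than in naive cells (35.3% of all genes were called in each direction), with a median log2 change of 0.65. Tufm, the mitochondrial elongation factor that delivers charged tRNA, rose by 2.45 ± 0.18 (SE, adjusted p = 1.15e-06 by limma-trend), from a mean of 51.7 to 292 CPM, its exchange factor Tsfm by 2.17 ± 0.15 and the translocase Gfm1 by 2.13 ± 0.13. Gfm2, which recycles mitochondrial ribosomes, fell by 0.93 ± 0.16, from 95.4 to 49.7 CPM. Of 5 cytosolic elongation factors 3 were higher, with Eef1g at 1.24 ± 0.13, Eef1d at 1.12 ± 0.10 and Eef1b2 at 0.44 ± 0.09. Eef1a1, which delivers charged tRNA in the cytosol, changed by 0.20 ± 0.17 (adjusted p = 0.328), with means of 12300 and 14200 CPM.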
